A study of Caenorhabditis elegans with 2 samples.

Results

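The 276 transfer RNA (tRNA) genes of the Caenorhabditis elegans X chromosome were examined as sites recovered with HLH-6 in chromatin immunoprecipitation sequencing (ChIP-seq). They are all genes of the tRNA biotype on X in the Ensembl annotation of the WBcel235 assembly (the same sequence as ce11), out of 612 tRNA genes in the nuclear genome and 46890 annotated nuclear genes. For each gene, the region with the highest signal value among those with a summit inside the gene or within 200 bp of it was taken from the authors' lists. All tRNA genes of X were kept, whether or not a region lay near them.

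The assay used whole hermaphrodite worms of strain RW10702, a transgenic line that stably expresses HLH-6 with GFP and FLAG at its C-terminus, collected as late embryos 3.5 h after synchronization by bleaching. Chromatin was sheared by sonication and precipitated with an antibody against GFP, in 2 biological replicates of this single group. The embryos were taken whole, so the cells in which a gene was occupied cannot be told apart, and no group without the tagged protein was analysed here. The deposited lists hold regions and not reads, so the read depth behind each value is unknown, and no p-value is given because genes that share sequence, place and summits are not replicates.

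tRNA genes are transcribed by RNA polymerase III from promoter elements that lie inside the gene, the A box and the B box. The factor TFIIIC binds these boxes and places TFIIIB, which contains the TATA-binding protein, on the DNA just upstream of the first base. A run of T bases just after the gene ends transcription. HLH-6 is a basic helix-loop-helix (bHLH) factor, related to the proneural achaete-scute proteins and known for turning on genes of the pharyngeal glands, and bHLH proteins bind the E-box CANNTG at genes read by RNA polymerase II.

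A B box core was found inside most of the genes, and some of the genes with the 12 highest values are shown here. All of those shown but F15G9.t2 hold it. Capitals mark the letters GTTCGANNC, searched on the gene's own strand, and each sequence is the whole gene, 5′ to 3′, from the RefSeq genome of WBcel235. C04A11.t1 (tRNA-Leu, X:13665555-13665673, plus strand) held the highest value of all, F15G9.t1 (tRNA-Ala, X:9743589-9743660, plus strand) and F15G9.t2 (tRNA-Ala, X:9743747-9743818, plus strand) share the next, and C33G3.t2 (tRNA-Lys, X:14063946-14064018, minus strand) and C02B4.t2 (tRNA-Tyr, X:12665228-12665311, plus strand) lie among the 12 highest.
C04A11.t1: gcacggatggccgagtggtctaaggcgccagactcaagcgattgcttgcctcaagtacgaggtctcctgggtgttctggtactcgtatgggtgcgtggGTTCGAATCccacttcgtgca
F15G9.t1: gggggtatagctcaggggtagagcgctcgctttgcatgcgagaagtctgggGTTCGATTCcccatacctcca
F15G9.t2: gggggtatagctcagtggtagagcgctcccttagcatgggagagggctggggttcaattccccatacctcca
C33G3.t2: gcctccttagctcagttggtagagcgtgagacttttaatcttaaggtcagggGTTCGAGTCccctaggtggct
C02B4.t2: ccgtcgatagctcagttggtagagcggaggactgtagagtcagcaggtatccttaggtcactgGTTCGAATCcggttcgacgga

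The core was present in 200 of the 276 genes, against 0.476% of windows of the median gene length tiled along X with both strands searched. F15G9.t2, which had a summit as well, does not hold the exact letters GTTCGANNC. Genes with and without them had a summit in the optimal list about as often, 51 of 200 (25.5%) and 20 of 76 (26.3%). Variants of the B box were not searched, so a gene without these letters may still hold one. The comparison therefore does not tell whether summits go with a B box.

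About 1 in 4 of the tRNA genes of X lay near a summit of the optimal list, which the authors drew from both replicates. The optimal list holds 912 regions, which the authors chose with IDR, a selection by how well the ranks of a region match between replicates. A summit of this list lay within 200 bp of 71 of the 276 genes (25.7%). The same held for 2.45% of all annotated genes and for 2.75% of protein-coding genes, and a summit fell in 0.583% of windows of 472 bp, the reach of the search around a gene of median length, tiled along X. The 71 genes correspond to 65 regions, 59 with a single tRNA gene and 6 with a pair. These were 29.1% of the 223 optimal regions on X.

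A further 81 genes (29.3%) had a summit only in the longer list made from both replicates together, and 124 (44.9%) had none there. That pooled list and the replicate lists hold 30000 regions each, made as input for the selection, so a summit in them is not a call. A pooled summit lay near 152 of the 276 genes (55.1%), against 12.5% of the tiled windows. Replicate 1 had a summit near 152 genes (55.1%, windows 12.7%) and replicate 2 near 150 (54.3%, windows 12.9%). Among the strongest 912 regions of each replicate, as many as the optimal list holds, 74 genes (26.8%) had one in replicate 1 and 70 (25.4%) in replicate 2, against 0.565% and 0.610% of windows. The share of genes was thus well above the background in either replicate alone.

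The tRNA genes of X were marked about as often as those of other chromosomes, and their values within the optimal list were higher. On chromosomes II to V, 76 of 270 tRNA genes (28.1%) had an optimal summit, so the share on X minus that on II to V was -2.42 percentage points. In the strongest 912 regions of a replicate this difference was 2.00 points in replicate 1 and -1.30 points in replicate 2, so its sign turned between the replicates. The authors' signal value, a score without a stated scale, ran from 94.7 to 530 on X with a median of 177, and from 87.0 to 329 on II to V with a median of 128. The quartiles were 126 and 242 on X and 104 and 164 on II to V, so the ranges overlapped widely. The higher median on X was seen in both replicates among their strongest 912 regions, with 84.7 against 67.9 in replicate 1 and 85.1 against 69.5 in replicate 2. Over all genes with a summit in a list of 30000 regions the medians were close, 80.0 on X and 78.1 on II to V in the pooled list, 43.6 and 40.2 in replicate 1 and 42.8 and 43.5 in replicate 2. The higher values on X were thus seen among the strongest regions and not over all summits.

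The strongest regions of the whole list held many of these genes. Of the strongest 50 optimal regions, 11 lay at tRNA genes of X and 5 at tRNA genes of II to V, and of the strongest 100, 28 and 12. Of the 12 regions on X among the strongest 50, 11 thus lay at tRNA genes. The snoRNA genes of X, another class of small structured RNAs, had an optimal summit at 1 of 33, with a value of 94.6.

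The highest values belonged to genes of many amino acids. C04A11.t1 had a value of 530 in the optimal list, 263 in replicate 1 and 264 in replicate 2, and ranked 6 in replicate 1 and 7 in replicate 2. Its gene has no identical copy and holds an intron between exons at X:13665555-13665592 and X:13665628-13665673, and its summit lay 22 bp after its first base. F15G9.t1 and F15G9.t2, 87 bp apart inside a protein-coding gene of the same strand, share a region with an optimal value of 363, and 188 and 180 in replicates 1 and 2. Their summit lay between the genes, so the signal of the one cannot be told from that of the other.

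Genes that stood alone followed. W03G11.t1, a tRNA-Lys gene 112555 bp from the next tRNA gene, had 342 in the optimal list, 161 in replicate 1 and 178 in replicate 2. F17H10.t1, a tRNA-Gly gene, had 313, with 129 and 183 in the replicates, which puts replicate 2 above replicate 1. C33G3.t2 (tRNA-Lys) had 281, with 148 and 132. In these genes the order of the replicates varied, and no replicate was the higher throughout.

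Pairs of genes on opposite strands shared summits too. C53C7.t1 and C53C7.t2, tRNA-Ser genes read away from each other, share a summit with 282 in the optimal list, 150 in replicate 1 and 131 in replicate 2. M02F4.t1 (tRNA-Gly) and M02F4.t2 (tRNA-Glu), read away from each other as well, share a summit with 282, and 128 and 154 in the replicates. In both pairs the summit lay upstream of both genes, in the stretch that separates them.

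R01H5.t1 (tRNA-Thr) had 271 in the optimal list, with 137 and 136 in the replicates. C02B4.t2 (tRNA-Tyr) had 271 as well, with 139 and 123. C42D8.t1 (tRNA-Ile) had 267, with 145 and 123. Values of the next genes were close to these, and their order is not resolved by the spread between the replicates.

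The strongest gene of each amino acid spanned a wide range. F41D9.t3 (tRNA-Asn, 257), F28H6.t1 (tRNA-Arg, 255), T28B4.t1 (tRNA-Phe, 253), C06G1.t1 (tRNA-His, 253), F38G1.t2 (tRNA-Asp, 231) and R04A9.t1 (tRNA-Gln, 228) lay in the upper part of the optimal values. ZK899.t1 (tRNA-Pro, 190), R04D3.t2 (tRNA-Val, 187), C02F12.t1 (tRNA-Met, 182) and F42D1.t1 (tRNA-Cys, 163) lay near the median. tRNA-Trp had no gene with an optimal summit on X.

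The optimal list ended close above the strongest values left out of it. The lowest members were T18D3.t1 (tRNA-Ala, 98.5) and C03A3.t1 (tRNA-Arg, 94.7). The highest pooled values without an optimal summit were 85.6 at F52H2.t1 (tRNA-Asp), 83.6 at K11E4.t2 (tRNA-Lys), 82.6 at R11B5.t1 (tRNA-Thr), 82.5 at C48C5.t2 (tRNA-Ser) and 80.0 at H08J11.t2 (tRNA-Gln). The summit at F52H2.t1 lay 204 bp after its first base, beyond the gene. The one at H08J11.t2 lay 252 bp after its first base and is shared with H08J11.t3, a tRNA-Gln gene that holds it 66 bp after its own first base. The 81 genes with a pooled summit only ranged from 22.6 to 85.6 with a median of 47.2.

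Genes with a summit in both replicates were ranked much alike by them. All 71 genes with an optimal summit had a summit in each replicate's list, 70 of them among the strongest 912 of replicate 1, 62 among those of replicate 2 and 61 in both. Across the 123 genes with a summit in both replicates, the log2 values had a Pearson correlation of 0.85 and a Spearman correlation of 0.86, and across the 71 genes with an optimal summit 0.76 and 0.79. These describe genes within a pair of libraries, and neighbouring genes share regions. The optimal list was itself drawn from both replicates by IDR, so its 71 genes were not chosen apart from these values. At these genes it held the same regions as the 912 strongest of the pooled list. How far the choice of the list made the replicates look alike there was not tested. The 123 genes leave out those seen in a single replicate, as 152 genes had a summit in replicate 1 and 150 in replicate 2. The ratio of replicate 1 to replicate 2 had a median of 1.07 and ran from 0.36 to 1.96, and 55 of the 71 genes lay within 1.5 times of equal.

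**Figure D1:**
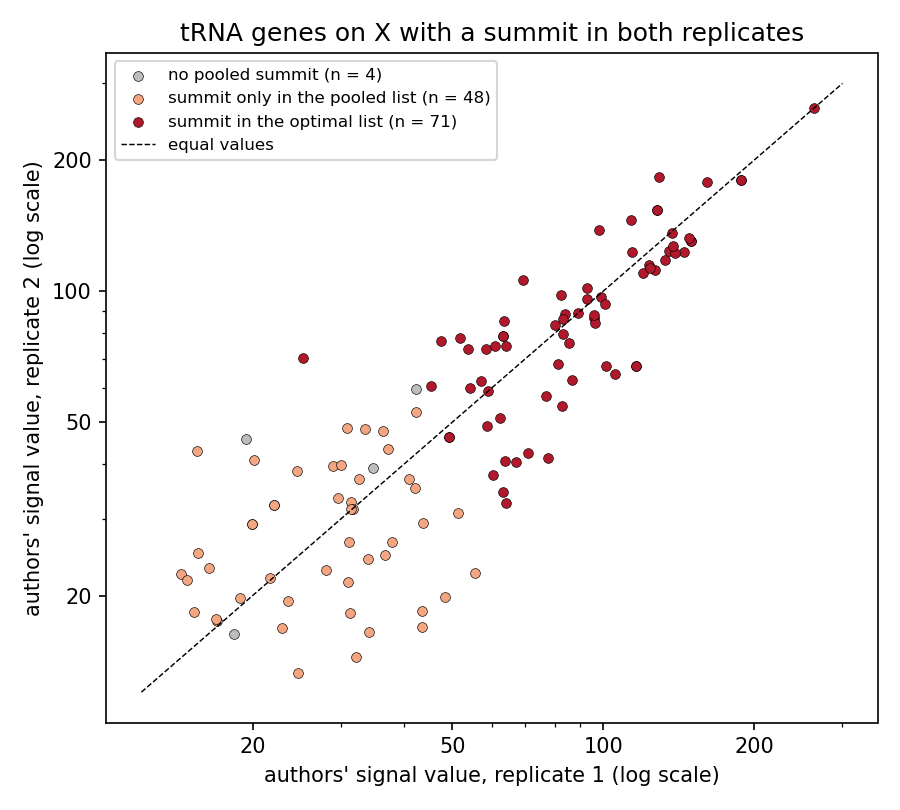
The authors' signal value at each X tRNA gene in replicate 1 (x axis) and replicate 2 (y axis), both on log scales without a stated unit, for the 123 genes with a summit in both; colours give the list that holds the summit, and the dashed line marks equal values. C04A11.t1 is the point at the upper right with 263 and 264, and the 71 genes of the optimal list lie above nearly all of the 48 with a pooled summit only.

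A few genes differed between the replicates. ZC449.t1 (tRNA-His, optimal value 99.4) had 25.1 in replicate 1, where it ranked 7179, and 70.1 in replicate 2, where it ranked 234. F59C12.t3 (tRNA-Val, 99.4) had 63.0 at rank 297 in replicate 1 and 34.6 at rank 2905 in replicate 2. C03A3.t1 (tRNA-Arg) had 64.0 at rank 286 and 32.6 at rank 3622. All 3 lie among the lowest optimal values of X tRNA genes, and each was within the strongest 912 regions of 1 replicate only.

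The genes without a pooled summit were mostly empty in both replicates. Of the 124, 92 had no summit in either replicate's list, 19 had one in replicate 1, 17 in replicate 2 and 4 of these in both. In the strongest 912 regions, 1 of them had a summit in replicate 1 and 3 had one in replicate 2. T25B6.t2 (tRNA-Thr) had 42.3 in replicate 1 and 59.6 in replicate 2. A gene without a pooled summit can thus have a summit of some strength in both replicates. Of the 81 genes with a pooled summit only, 48 had a summit in both replicates and 5 in neither.

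Summits gathered at the start of the gene. On the gene's own strand, the optimal summits had a median position 5 bp after the first base, with quartiles 16.5 bp before it and 21 bp after it. Of the 71 genes, 40 had the summit inside the gene, 29 upstream and 2 downstream, and 55 had it within 50 bp of the first base. Among the 59 genes that share no summit, 39 lay inside, 20 upstream and 0 downstream. The median was 4 bp in replicate 1 and 8 bp in replicate 2, and the summits of the replicates lay a median of 18.0 bp apart, so a shift of a few bases is not resolved.

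**Figure D2:**
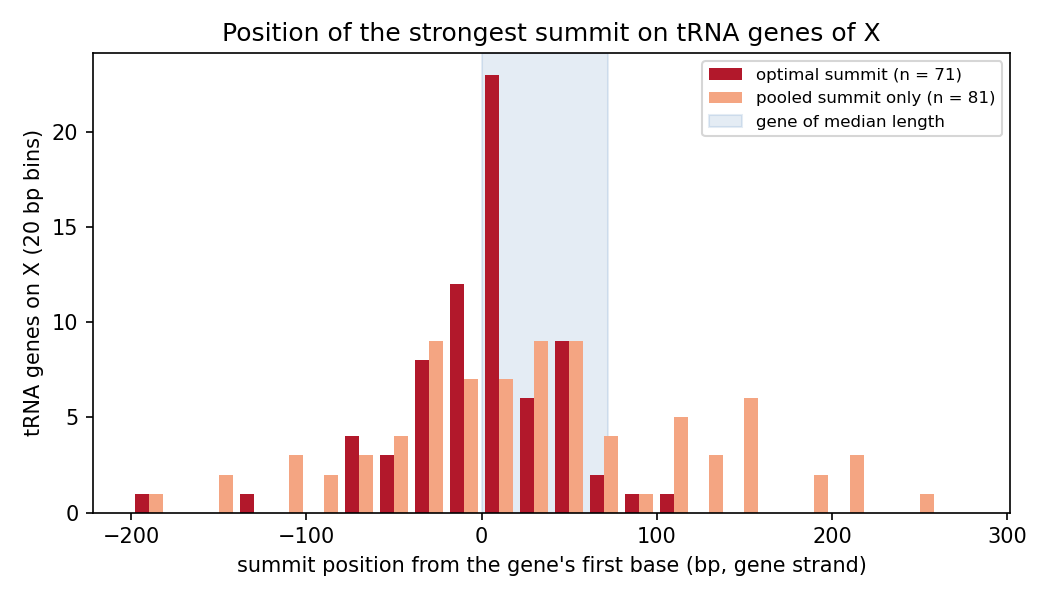
Number of X tRNA genes (y axis) by the position of the strongest summit in bp from the gene's first base on its own strand (x axis, 20 bp bins), for the 71 genes with an optimal summit and the 81 with a pooled summit only; the shaded band is a gene of median length, 72 bp. The optimal summits pile up around the first base, with 55 of 71 within 50 bp of it, and the others are spread more widely.

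The weaker summits were less well placed. Of the 81 genes with a pooled summit only, 27 had it inside the gene, 31 upstream and 23 downstream, with a median of 31 bp after the first base. On II to V, the 76 optimal summits had a median of 12.5 bp, with 43 inside, 23 upstream and 10 downstream. Of the 65 optimal regions, 12 (18.5%) also fell in the promoter window of a protein-coding gene, 1000 bp upstream to 200 bp downstream of a start site, and 0 lay within 200 bp of a snoRNA or snRNA gene.

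E-boxes near the summits were somewhat more common than along X as a whole. CANNTG, which reads the same on both strands, occurred within 50 bp of 28 of the 65 summits (43.1%), and in 33.6% of windows of the same 101 bp tiled along X. Inside the genes themselves it occurred in 19 of the 71 genes with an optimal summit and in 26 of the 124 without a pooled one. tRNA genes have a base composition unlike that of X as a whole, and its part in the first difference was not tested.

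All amino acids other than Trp had at least 1 gene with an optimal summit. RefSeq names the amino acid, or isotype, of 273 of the 276 genes, over 20 isotypes. The share was highest for tRNA-Ala (6 of 13 genes, 46.2%) and tRNA-Pro (9 of 20), and followed by tRNA-Tyr (3 of 8), tRNA-Leu (6 of 17), tRNA-Gly (7 of 20) and tRNA-Glu (8 of 23). It was lowest for tRNA-Arg (4 of 27), tRNA-Cys (1 of 7), tRNA-Lys (2 of 18), tRNA-Gln (1 of 15) and tRNA-Trp (0 of 5). The order was not that of the other chromosomes, where tRNA-Pro had 2 of 20 and tRNA-Lys 8 of 21. With so few genes to an isotype, and many of them in the same array, these shares are counts and not rates of the isotype.

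**Figure D3:**
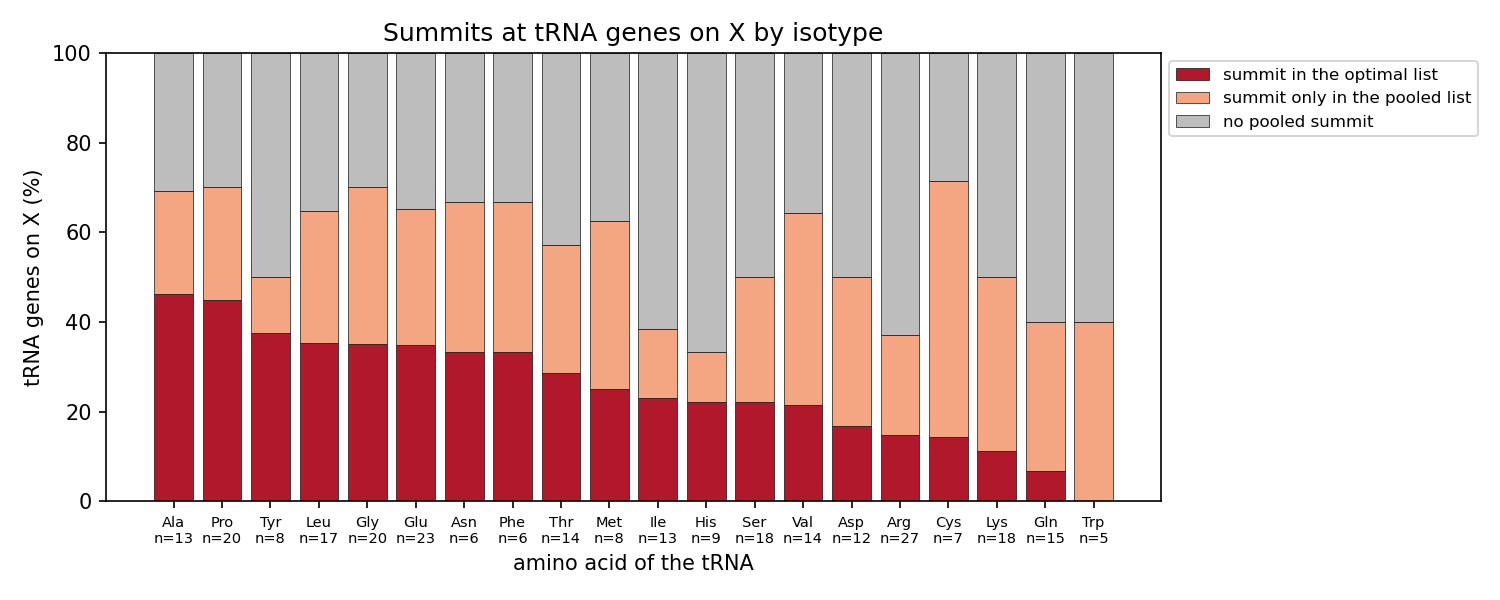
Share of the X tRNA genes of each amino acid (y axis, percent; n below each bar) with an optimal summit, a summit only in the pooled list, or no pooled summit. The optimal share runs from 46.2% for Ala to 0 for Trp, and most isotypes hold genes of all 3 kinds.

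The 5 tRNA-Trp genes of X include 4 that carry names of suppressors, since mutant forms of them were found to read through stop codons. sup-28 had a pooled value of 52.0, with 33.9 in replicate 1 and 24.2 in replicate 2, and rtw-5 had 57.9, with 31.1 and 26.5. sup-7 had no pooled summit, but 19.4 in replicate 1 and 45.8 in replicate 2. sup-21 and sup-33 had none in any list. The tRNA-Trp genes were singled out with their values in view.

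Genes with an intron were among those marked. Ensembl gives 2 exons for 12 of the 276 genes, 5 of them with an optimal summit, 2 with a pooled one only and 5 with none. They comprise all 8 tRNA-Tyr genes, 3 tRNA-Leu genes and C02B4.t1, a tRNA-Ile gene. Of the tRNA-Tyr genes, 4 of the same sequence form the run at R11, 1 with an optimal summit and 3 with no pooled one. Of all 276 genes, 25.7% had an optimal summit and 44.9% no pooled one. C02B4.t1 had 237 in the optimal list, 124 in replicate 1 and 113 in replicate 2, and has no identical copy. The other 2 tRNA-Leu genes with an intron, F42F12.t1 and F02D10.t3, had a pooled summit only and none. Intron genes were thus found at high values and without a summit alike.

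Solitary genes carried an optimal summit more often than clustered ones. Of the 76 genes whose nearest tRNA gene was over 10 kb away, 35 (46.1%) had one, against 36 of 200 (18.0%) with a neighbour within 10 kb. Among the strongest 912 regions of a replicate the shares were 46.1% and 19.5% in replicate 1 and 40.8% and 19.5% in replicate 2. The split was smaller on II to V, with 42 of 131 (32.1%) and 34 of 139 (24.5%). The optimal values themselves did not follow spacing, with medians of 163 for solitary and 183 for clustered genes.

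Most genes of tight arrays had no pooled summit. In 13 runs of at least 3 tRNA genes with gaps of at most 500 bp, 4 of 48 genes had an optimal summit, 13 a pooled one only and 31 none. Over all tRNA genes of X, 25.7% had an optimal summit and 44.9% no pooled one. The run of 6 tRNA-His genes from F28H6.t2 to F28H6.t5, X:14135045-14137010, had 1 gene with a pooled summit, with a value of 37.3, and 5 with none. The 3 tRNA-Arg genes at F49E7, the 3 tRNA-Ile genes at B0344 and the 3 tRNA-Lys genes from K11E4.t4 to K11E4.t6 had no pooled summit. The 3 runs with an optimal summit were the tRNA-Pro run from C16B8.t1 to C16B8.t3, with 2 optimal genes and a highest value of 183, a mixed run at F22F1 with 156 at F22F1.t6, and the tRNA-Tyr run at R11.

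How much of an array can be read by short reads was checked from the genome. A sequence of 32 bases was called unique if it occurs once in the genome, and the share of unique ones in each gene with 200 bp to either side had medians of 87.6% in genes with an optimal summit, 87.6% with a pooled one only and 87.3% with none. In 7 genes it was under 50%, 5 of them of the F28H6 run, and all 7 had no pooled summit. Among the 229 genes at 80% or more, 62 (27.1%) had an optimal summit and 41.0% no pooled one, and among the 47 genes below that, 9 (19.1%) and 63.8%. The sources used here give neither read length nor mapping rules, and their part in the lack of summits in arrays was not tested.

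The stretch just upstream set the genes apart most clearly. Over the 50 bases before the gene, A and T made up a median of 54.0% in genes with an optimal summit, 60.0% in those with a pooled one only and 64.0% in those with none, against 64.8% for all of X. The quartiles were 49.0% and 58.0% for the first and 58.0% and 68.5% for the last, so they met but did not overlap. The genes themselves had the same median of 41.7% in all 3 classes, the 50 bases downstream 74.0% in all 3, and the 500 bp to either side 65.4%, 65.2% and 66.3%. On X the medians thus differed most in the upstream stretch. On II to V the downstream medians differed as well, with 71.0%, 72.0% and 76.0% in the same order.

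The share of genes with an optimal summit fell with the A and T content. It was 31 of 67 (46.3%) at 45 to 54%, 30 of 116 (25.9%) at 55 to 64% and 4 of 79 (5.06%) at 65% and over. In replicate 1 these shares were 46.3%, 28.4% and 6.33%, and in replicate 2 47.8%, 23.3% and 5.06%. The 14 genes under 45% had 6. The median over genes in the strongest 912 regions was 56.0% in replicate 1 and 54.0% in replicate 2, and 64.0% over genes without a summit, in each replicate.

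Spacing and composition moved together. Among solitary genes, the share was 18 of 33 (54.5%) under 55% A and T, 15 of 33 (45.5%) at 55 to 64% and 2 of 10 above. Among clustered genes it was 19 of 48 (39.6%), 15 of 83 (18.1%) and 2 of 69 (2.90%). On X, each of the features therefore went with the share within classes of the other. On II to V the split by spacing varied with composition: under 55% A and T the shares were 26 of 71 for solitary and 22 of 56 for clustered genes, at 55 to 64% 15 of 46 and 7 of 56, and above 1 of 14 and 5 of 27. There the upstream medians were 52.0%, 54.0% and 60.0% for the same 3 classes, in the same order. The sequencing yield of A and T rich stretches is not given in the files, and its part in these shares was not tested.

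**Figure D4:**
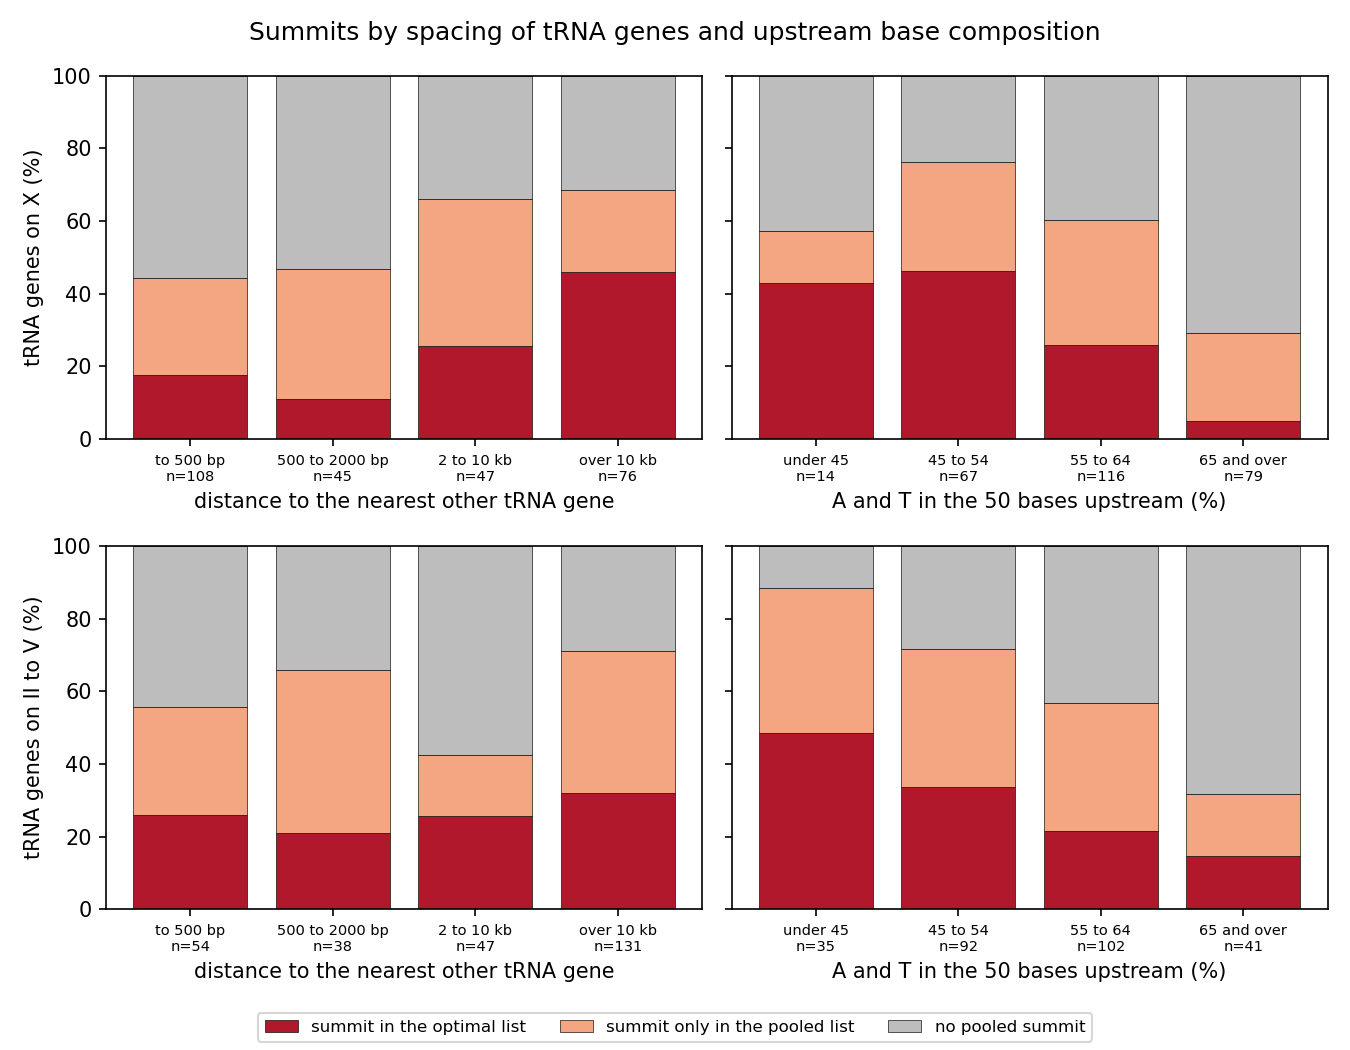
Share of tRNA genes (y axis, percent; n below each bar) with an optimal summit, a pooled one only or none, by distance to the nearest other tRNA gene (left) and by A and T content of the 50 bases upstream (right), on X (top) and on chromosomes II to V (bottom). On X the optimal share is 46.1% in genes over 10 kb from another and 5.06% where A and T reach 65%.

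Genes with the same sequence differed in signal. The 276 genes have 106 distinct sequences, and 219 have an identical copy somewhere in the genome. Of 20 groups with at least 5 identical genes on X, together 162 genes, each held at least 1 gene with an optimal summit and at least 1 without a pooled summit, 41 and 67 genes in all. In 18 of the 20 groups the median upstream A and T content was lower with an optimal summit than with no pooled summit. In 2 (tRNA-Pro and a tRNA-Lys group) it was higher. Many of these medians rest on only 1 or 2 genes. Some of the 41 genes share their summit with another tRNA gene, among them C53C7.t1, the only optimal gene of its tRNA-Ser group. The signal at a shared summit cannot be assigned to 1 gene. Within a group the gene sequence, with its A box and B box, was equal in genes with and without a summit.

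**Figure D5:**
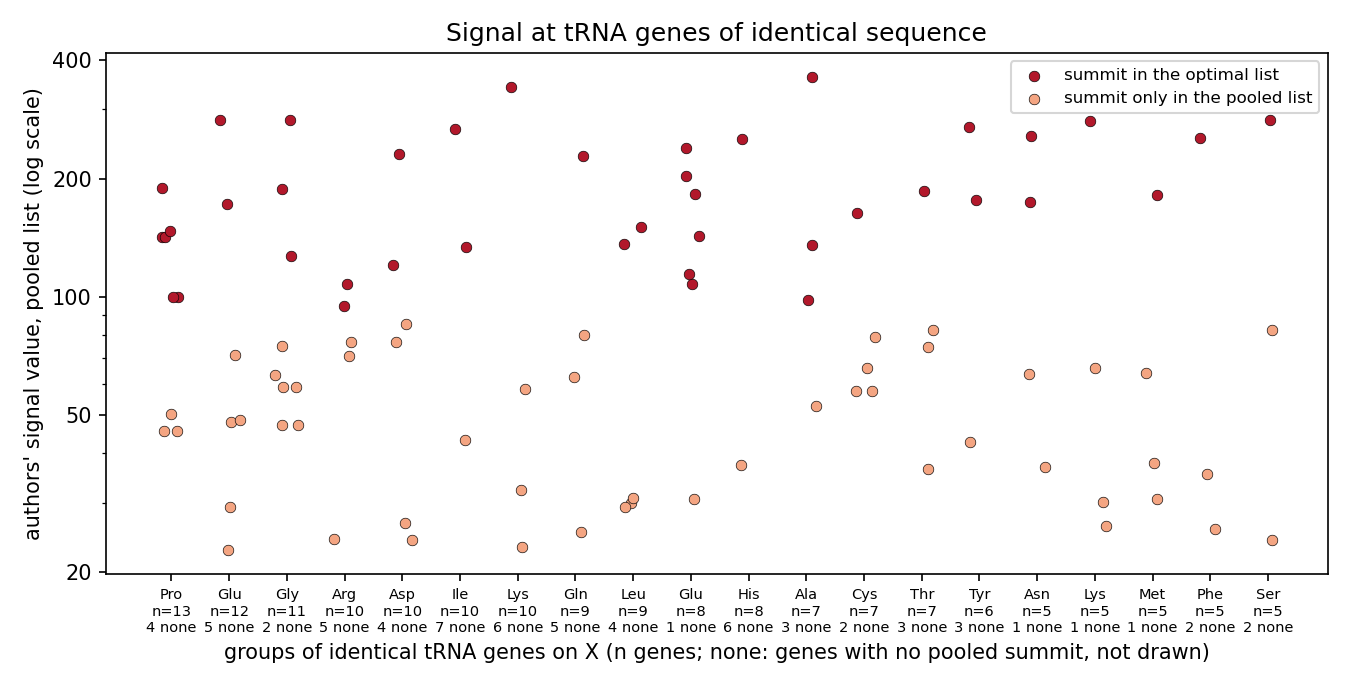
The authors' signal value in the pooled list (y axis, log scale without a stated unit) for each gene of the 20 groups of at least 5 identical tRNA genes on X (x axis), coloured by list; the number with no pooled summit stands below each group. Each group has at least 1 gene in the optimal list, and values within a group spread from 25.2 to 228 for tRNA-Gln, for example.

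In 3 of these groups the gene with the highest value and one with no pooled summit were set side by side, to show what differs when the gene itself does not. Each line gives the 50 bases upstream in lower case and the first 10 bases of the gene in capitals, 5′ to 3′ on the gene's strand, from the RefSeq genome of WBcel235. The genes are ZK899.t1 (X:9467729-9467800, minus strand) and R04D3.t3 (X:13308030-13308101, plus strand) for tRNA-Pro, T06H11.t2 (X:10132678-10132750, plus strand) and F09B9.t2 (X:10148649-10148721, minus strand) for tRNA-Arg, and R04A9.t1 (X:410391-410462, plus strand) and C05E7.t1 (X:12937701-12937772, plus strand) for tRNA-Gln.
ZK899.t1: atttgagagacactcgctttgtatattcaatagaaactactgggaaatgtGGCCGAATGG
R04D3.t3: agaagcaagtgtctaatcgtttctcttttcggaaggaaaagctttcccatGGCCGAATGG
T06H11.t2: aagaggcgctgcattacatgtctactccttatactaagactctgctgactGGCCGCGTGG
F09B9.t2: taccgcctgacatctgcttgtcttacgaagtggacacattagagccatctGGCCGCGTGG
R04A9.t1: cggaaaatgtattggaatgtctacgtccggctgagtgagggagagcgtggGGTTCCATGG
C05E7.t1: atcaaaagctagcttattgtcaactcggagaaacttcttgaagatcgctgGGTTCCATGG

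Within a pair the gene is the same and the upstream stretch is not. ZK899.t1 had 190 in the optimal list, 101 in replicate 1 and 93.2 in replicate 2, and R04D3.t3 no pooled summit and 15.4 in replicate 2. T06H11.t2 had 108, with 58.7 and 48.9 in the replicates, and F09B9.t2 no pooled summit and 37.8 in replicate 2. R04A9.t1 had 228, with 98.3 and 138, and C05E7.t1 none in any list. The A and T content was 46.0% in R04A9.t1 and 60.0% in C05E7.t1, but 66.0% in ZK899.t1 and 60.0% in R04D3.t3, and 56.0% in T06H11.t2 and 52.0% in F09B9.t2. A lower content in the gene with the optimal summit was thus seen in 1 of these 3 pairs. In the tRNA-Pro group the medians also ran the other way, 61.0% with an optimal summit and 59.0% with no pooled one. F09B9.t2 is 1 of 5 tRNA-Arg genes with no pooled summit, and their median was 64.0%, so the order in that pair depends on the gene taken. R04D3.t3 is likewise 1 of 4 in its group. In both groups other genes had no summit in any list, so these 2 are not the lowest.

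The tRNA-Tyr run at R11 shows the same within 1 array. Its 4 genes have the same sequence. R11.t1 had 177 in the optimal list, 83.1 in replicate 1 and 86.1 in replicate 2, and R11.t2, R11.t3 and R11.t4 had no pooled summit. Of the 2 other genes of this sequence on X, C02B4.t2 had 271 and F56F10.t1 a pooled value of 42.8.

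Other features of the genes went less clearly with the signal. Genes with no identical copy had an optimal summit in 8 of 57 cases (14.0%). The share was 11 of 31 (35.5%) at 2 to 5 copies and 15 of 53 (28.3%) at 6 to 10. Over 10 copies it was 37 of 135 (27.4%), so it did not rise steadily with copy number. Genes inside a protein-coding gene on its own strand had 9 of 51 (17.6%), those on the opposite strand 13 of 45 (28.9%) and those between coding genes 49 of 180 (27.2%). The counts on both strands were close, 36 of 136 on plus and 35 of 140 on minus. A run of TTTT in the 30 bases downstream was found at 273 of 276 genes, against 34.8% of windows of that length on X searched on 1 strand, and the 3 genes without it had no pooled summit.

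Along X, the share was highest from 3 to 6 Mb, with 14 of 27 genes (51.9%), and lowest from 15 to 18 Mb, with 6 of 49 (12.2%), and from 6 to 9 Mb, with 10 of 69 (14.5%). In replicate 1 these were 48.1%, 14.3% and 15.9% and in replicate 2 55.6%, 8.16% and 11.6%. The stretch from 6 to 9 Mb holds 5 of the 13 arrays.

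Genes that make or handle tRNAs were not marked in their promoters. The list held 15 genes: the RNA polymerase III subunits rpc-1 and rpc-2, the TFIIIB parts brf-1 and tbp-1, the TFIIIC genes tftc-1, tftc-3 and tftc-5, the polymerase III repressor mafr-1, the tRNA export factor xpo-3, the 3′ processing enzyme hoe-1, the tRNA ligase rtcb-1, the RNase P gene popl-1, the modification enzymes nsun-2 and pus-1, and hpo-31. None of the 15 had an optimal summit in a promoter window, whereas 500 of 19973 coding genes (2.50%) had one. At that share a list of this length would seldom hold one, so the count says little about these genes. In the pooled list rtcb-1 had 56.6, hoe-1 30.2, pus-1 24.9 and rpc-2 24.6, and the other 11 had no summit.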

How the data were processed

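Regions were taken from 4 lists in the narrowPeak layout for ce11. Per the README texts deposited with them, a replicate list rests on the alignments of 1 replicate with a control, the pooled list on those of both, and the optimal list comes from these by IDR. The aligner, caller, filters and threshold behind them is information not given in the sources used here. The signal value is a score deposited by the authors, without a stated scale or depth, and was used to rank and describe regions within a list. The −log10 q-value deposited by the authors was used only to see how far down the lists reach: 0.119 in the pooled list and 2.15 in the optimal one. The summit offset, the other deposited column used, was added to the region's start.

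Genes came from Ensembl release 115, and isotypes and sequence from RefSeq, both of WBcel235. Coordinates count from 1. Shares, medians and correlations were computed with Python 3.11.15, pandas 2.3.3 and scipy 1.17.1, and summit assignment was tested on simulated regions. The genes and lists were chosen with earlier results of these data known.

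Genes were named by a rule: the 12 highest optimal values, the highest of each isotype with at least 5 genes, the 3 with the largest rank difference between replicates, the 5 strongest without an optimal summit, the 2 lowest, genes sharing their summits, and the extremes of 3 identical groups. Others (rtw-5, the sup genes, T25B6.t2, C02B4.t1 and other intron genes, and genes of the arrays) were chosen after their values were seen. Alternatives covered the distance, the list, its length, shared summits and leaving out a replicate.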

Additional observations from a re-analysis of the deposited data

How the results depend on the processing

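Each of the 3 main values was recomputed under 10 alternatives. The count of 71 genes stayed within 1.5 times of itself under 9 of them, from 64 with the 456 strongest optimal regions to 84 with double the number of pooled regions, and was 40 when the summit had to lie inside the gene. From 1 replicate alone it was 70 to 74. The share on X minus that on chromosomes II to V was -2.42 points. It turned to 2.08 points with the 456 strongest optimal regions, and ran from -1.30 to 2.00 with 1 replicate alone, X being the higher without replicate 2. Within the other alternatives X was lower. With chromosome I added, 96 of 336 genes (28.6%) outside X had a summit. The median summit position of 5 bp was 14.5 bp with summits inside the gene only, by construction, 8 bp with double the number of pooled regions, and 4.5 to 8 bp with 1 replicate alone. The cause of the other shifts was not tested. No paired analysis was possible because the replicates form a single group. Without read counts, a gene with no summit cannot be told from one with too few reads, and identical genes can share reads.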
